A study of Mus musculus with 10 samples.

Results

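Nuclear receptors are transcription factors that bind DNA directly, often as dimers, and many of them are switched by a small fat-soluble ligand such as a steroid, thyroid hormone, retinoic acid, vitamin D or a fatty acid. Others are orphan receptors, which act without a known ligand or mainly through the amount made. In the testis, retinoic acid receptors act in meiotic entry and in spermatid development, steroid receptors act mostly in somatic cells, and several orphan receptors are made in meiotic and haploid germ cells. The set described here was a list of 39 receptor genes in 18 families, chosen by gene symbol, and 38 of them had a row with values among the 19661 named genes of the array. Each of the 38 was represented by 1 array feature. Nr2e3 was not analysed here. The families were the receptors for estrogens, corticoids, progesterone, retinoids, thyroid hormone, vitamin D, bile acids and xenobiotics, the PPARs, and the orphan groups ERR, HNF4, NR2C, NR2E, COUP-TF, NR4A, NR5A, NR6A and NR0B.

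Whole testes of 5 wild-type (WT) mice and of 5 homozygous Crem knock-out (KO) mice were profiled, with 1 mouse on each Affymetrix Mouse Gene 1.0 ST array. CREM is a transcription factor of cAMP signalling with a strong activator form in round spermatids, and the KO allele, carried in all cells of the body, holds a neomycin resistance gene inserted across the part that encodes its alternative DNA-binding domains. WT and KO mice shared the mixed background 129Pas x C57Bl/J, an age of 8 weeks and the sampling time of 0 h (lights on), and none was treated. In batch 2 there were WT replicates 1, 2 and 3 with KO replicate 3, and in batch 4 WT replicate 5 with KO replicates 1, 4 and 5, while KO replicate 2 (batch 1) and WT replicate 4 (batch 3) each stood alone.

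Crem fell by 1.71 ± 0.07 on the log2 scale (SE), from 10.95 ± 0.06 to 9.24 ± 0.15 (SD, n = 5 each). Markers of the testis were present. Of late germ cell markers, 7 of 7 elongating (median log2 change −5.26) and 3 of 5 round spermatid markers (−0.30) were lower in KO testis. Markers of somatic cells rose in part, and none of these markers fell. Called higher were 5 of 6 for Leydig cells (median log2 change 0.57) and 6 of 7 for macrophages (0.51). With any 1 array left out, 4 or 5 Leydig and 5 to 7 macrophage markers were called. With the arrays centred on housekeeping genes, 4 of each were called. Endothelial markers rose in 3 of 6 (0.33). Of the Sertoli markers 4 of 10 rose (0.13; 2 without any 1 of WT replicates 1, 3 and 5 and KO replicates 1 and 3). Of the peritubular myoid markers 1 of 5 rose (0.10; 0 without KO replicate 3 and 2 without KO replicate 2). Of the spermatocyte markers 4 of 6 rose (0.25), 3 or 4 with any 1 array left out and 2 with the housekeeping centring. Of 7 spermatogonial markers 3 rose and 1 fell (0.18; 2 fell without WT replicate 3), and 1 rose with that centring. The 1 measured blood marker, Alas2, fell by 0.68 ± 0.06 on the log2 scale. None of the 3 measured markers of epididymis was called. In RNA of whole testis, fewer cells of a type and less RNA per cell cannot be told apart.

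Of the 38 receptors, 15 were called changed in KO testis (limma, Benjamini-Hochberg adjusted p under 0.05), which is 39.5%, where 44.3% of all named genes were called. Lower in KO were 7 receptors (18.4%, against 13.2% of all genes), namely Nr4a1, Rxra, Rarb, Nr6a1, Esrrb, Nr4a2 and Rxrg. Higher in KO were 8 (21.1%, against 31.1% of all genes), namely Thra, Nr1i3, Nr2f2, Nr2c2, Pparg, Esr1, Ppara and Nr3c1. With the arrays centred on housekeeping genes, which moves the median of all genes by −0.09, 9 receptors were lower and 6 higher, and the share of called genes that were higher was 49.4% in place of 70.1%. Without this centring, 3 of the 7 measured housekeeping genes were themselves called higher and 1 lower, so they are no fixed reference. The median log2 change was 0.01 over the 38 receptors and 0.07 over all genes. Among the called receptors it was −0.64 for those lower and 0.37 for those higher, near the −0.58 and 0.34 of all called genes. Nr4a1 and Rxra were the 2 receptors that changed by at least 1 in log2. A fall of this size was found in 4.36% of all genes and such a rise in 1.37%, which no receptor reached. WT and KO arrays did not overlap in 12 receptors (31.6%), where this held for 32.7% of all genes. No family held called members in both directions, and 12 of the 18 families held at least 1 called member. Within batch 2 and within batch 4, where 1 group is a single array, the changes of Nr4a2, Nr3c1, Pparg, Ppara, Nr1i3 and Nr2c2 kept their sign and were called in neither.

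**Figure D1:**
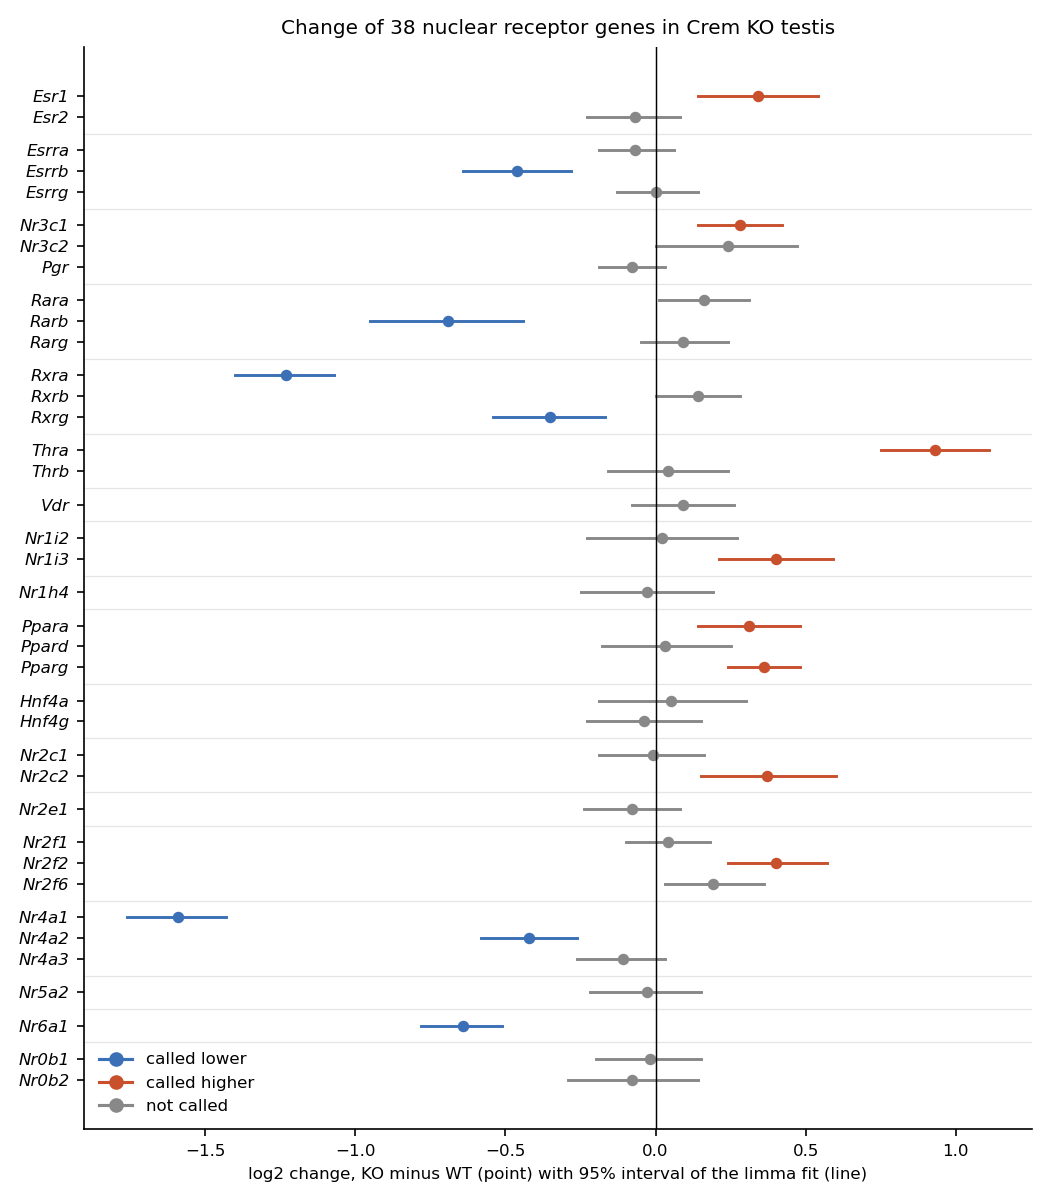
Log2 change of KO minus WT (horizontal axis) with the 95% interval of the limma fit for 38 nuclear receptor genes, grouped by family and coloured by the call. Nr4a1 and Rxra lie furthest to the left, at −1.59 and −1.23, Thra lies furthest to the right, at 0.93, and the 23 receptors not called lie between −0.11 and 0.24.

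The files hold no detection calls, so each receptor was set beside 1024 olfactory receptor genes, most of which are silent outside the nose. In each array the 95th percentile of these genes, at 6.32 to 6.57 on the log2 scale, served as a reference level. A level also depends on how well the probes bind, so receptors are not ranked against each other, and a feature below the reference may still carry transcript. In all 10 arrays 20 of the 38 receptors lay above the reference, in none lay 10, and 8 were above it in some arrays. In WT alone 20 were above it in every array (67.1% of all named genes were) and in KO 21. Of the 7 receptors that fell, Nr4a1, Rxra and Nr6a1 were above the reference in all 10 arrays. With the 99th percentile as reference, 12 receptors were above it in every WT array, and all 3 of these were, but in KO it was passed by Nr6a1 in 5 arrays, Nr4a1 in 4 and Rxra in 2. By the 95th percentile, Rarb, Esrrb and Nr4a2 were above the reference in 4, 3 and 2 of the 5 WT arrays. No KO array of these 3 was above it, and Rxrg was below it in every array. Of the 8 that rose, 7 were above this 95th percentile reference in all 10 arrays, and Nr1i3 was so in 1 KO array. The others below the reference in every array were Esr2, Pgr, Nr1h4, Hnf4g, Nr2e1, Nr2f1, Nr1i2, Esrrg and Nr4a3, none of which was called.

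The NR4A receptors are products of immediate-early genes, which are induced within a short time by cAMP and other signals and act mainly through their amount. CREM and its relatives bind the cAMP response element (CRE), whose full form is TGACGTCA and whose shorter form, here the short CRE, is TGACG or, on the other strand, CGTCA. A full CRE holds both short forms, which overlap. These letters were looked for on both strands in RefSeq promoter windows of 250 bases before to 50 bases after each annotated start (GRCm38.p6). The table matched 35 of the 38 measured receptors. All 3 NR4A genes had 4 short CREs in their window, and no other receptor in the table had as many. Of 15401 genes on the array with a window, 0.364% had 4 or more. The 250 bases before the start are shown for the 3 genes, 5′ to 3′ on the strand of the gene and with short CREs in capitals, because this family holds the receptor with the largest change. They are chr15:101266596-101266845 on the plus strand for Nr4a1, chr2:57124004-57124253 on the minus strand for Nr4a2 and chr4:48045055-48045304 on the plus strand for Nr4a3.
Nr4a1: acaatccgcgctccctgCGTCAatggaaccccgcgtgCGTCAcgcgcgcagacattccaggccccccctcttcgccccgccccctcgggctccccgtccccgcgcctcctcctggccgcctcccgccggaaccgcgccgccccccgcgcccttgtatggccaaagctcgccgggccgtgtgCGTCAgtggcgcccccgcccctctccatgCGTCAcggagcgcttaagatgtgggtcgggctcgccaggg
Nr4a2: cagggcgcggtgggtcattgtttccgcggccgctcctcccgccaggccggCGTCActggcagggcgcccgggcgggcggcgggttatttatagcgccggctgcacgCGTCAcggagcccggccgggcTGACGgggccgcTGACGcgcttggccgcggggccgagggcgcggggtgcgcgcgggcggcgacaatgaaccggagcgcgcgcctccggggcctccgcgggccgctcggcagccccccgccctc
Nr4a3: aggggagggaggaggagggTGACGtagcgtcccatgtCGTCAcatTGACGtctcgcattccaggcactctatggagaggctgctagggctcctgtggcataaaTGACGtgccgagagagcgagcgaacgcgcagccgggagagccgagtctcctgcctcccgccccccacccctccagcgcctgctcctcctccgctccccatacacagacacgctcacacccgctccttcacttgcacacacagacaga

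The first bases of the 4 short CREs lie at −233, −213, −69 and −40 from the start in Nr4a1, at −200, −144, −123 and −111 in Nr4a2, and at −231, −213, −205 and −147 in Nr4a3. The nearest short CRE is thus closest to the start in Nr4a1. No full CRE was found in these 3 windows. A match of letters is a description and does not show binding.

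**Figure D2:**
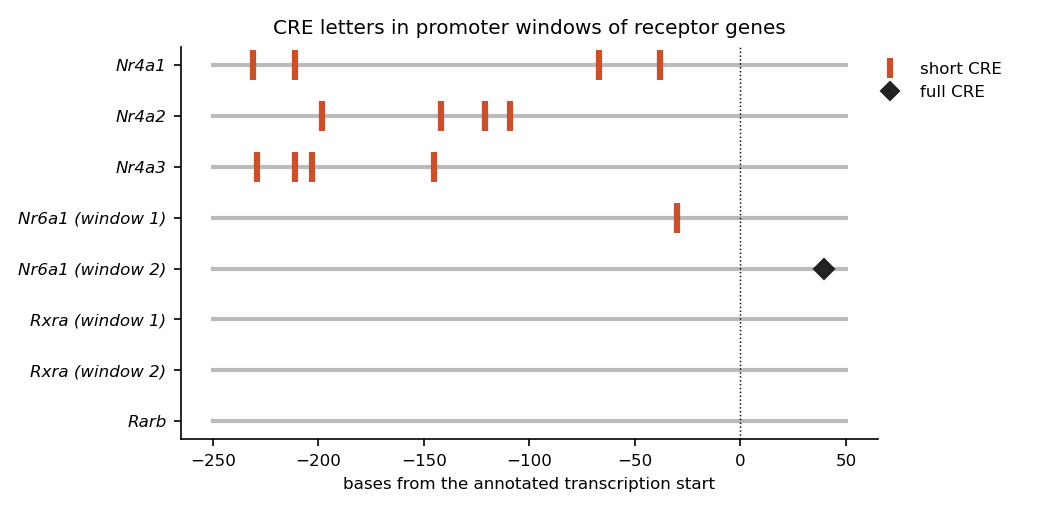
Position of short CREs (bars) and full CREs (diamonds) in promoter windows of 5 of the 7 receptor genes that fell in KO testis and of Nr4a3, in bases from the annotated start (horizontal axis). Nr6a1 and Rxra have 2 windows each. Not drawn are Esrrb, with short CREs at −158 and −117, and Rxrg, with none. Each NR4A window holds 4 short CREs, the second Nr6a1 window holds a full CRE 36 bases after the start, and the Rxra and Rarb windows hold none.

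Nr4a1, which in Leydig cells is induced through luteinising hormone and activates genes of steroid synthesis, had the largest change of all 38 receptors. Its log2 level was 9.21, 8.99, 8.93, 9.17 and 8.96 in WT replicates 1 to 5 and 7.58, 7.46, 7.52, 7.40 and 7.32 in KO replicates 1 to 5. The groups were apart by 1.34, and all KO arrays lay close together. It fell by 1.59 ± 0.07 on the log2 scale (SE; limma adjusted p = 7.5e-10), which leaves 33.1% of the WT signal. Nr4a2, known for its part in dopamine neurons, lay at 6.55, 6.40, 6.46, 6.62 and 6.27 in WT and at 5.91, 6.07, 6.08, 6.09 and 6.03 in KO. These groups did not overlap either, by 0.17, and the change was −0.42 ± 0.07 (adjusted p = 3.9e-04). It was −0.39 in batch 2 and −0.25 in batch 4, called in neither, where Nr4a1 was called in both (−1.52 and −1.53). Nr4a3 was at 6.02 to 6.30 in WT and 5.99 to 6.12 in KO, with a change of −0.11 (95% interval −0.26 to 0.03, adjusted p = 0.201), and it was called lower with the arrays centred on housekeeping genes (−0.21).

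The log2 difference between Nr4a1 and Nr4a2 changed by −1.17 ± 0.08 in KO testis (SE; exact permutation test, two-sided, p = 0.00794), and adjusted over the 27 pairs of receptors within a family p was 0.0195. Nr4a2 was below the reference in every KO array, where a further fall may not be seen, so this does not show that its transcript fell less. Nr4a3 was below it in all 10 arrays and is not set against the others. A p of 0.00794 is the smallest that 5 against 5 arrays allow. For all such pairs, the features of different genes may respond unequally to the same change in RNA, which was not tested.

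Other immediate-early genes did not share a direction. Of 15 measured, 3 fell and 2 rose, with a median of 0.11. Dusp1, a phosphatase of MAP kinases, fell by 1.10 ± 0.09 on the log2 scale (SE), Egr3 by 0.60 ± 0.10 and Fosb by 0.37 ± 0.08, while Klf6 rose by 0.55 ± 0.09. The Leydig markers, among them known targets of NR4A1 such as Star and Cyp17a1, were called higher in 5 of 6, and their mean level was 9.86 to 10.04 in WT and 10.23 to 10.91 in KO arrays. With any 1 array left out 4 or 5 were called, and 4 with the housekeeping centring. Star was near the limit (0.45 ± 0.16, SE; limma adjusted p = 0.042). Its WT arrays (9.20 to 9.89) and KO arrays (9.49 to 10.39) overlapped, whereas those of Cyp17a1 did not (0.61 ± 0.11).

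The retinoid X receptors are the shared partners with which retinoic acid, thyroid hormone, vitamin D and PPAR receptors bind DNA. Rxra lay at 8.71, 8.65, 8.49, 8.66 and 8.54 in WT replicates 1 to 5 and at 7.27, 7.30, 7.56, 7.23 and 7.52 in KO replicates 1 to 5. All KO arrays were lower than all WT arrays, by 0.93 or more. It fell by 1.23 ± 0.08 on the log2 scale (SE; adjusted p = 1.9e-08), with 42.5% of the WT signal left. Rxrb, which Sertoli cells need for normal lipid handling, was at 7.57 to 7.68 in WT and 7.58 to 7.86 in KO, a change of 0.14 ± 0.06 that did not pass (adjusted p = 0.104). It was called higher without KO replicate 2 (0.18), without KO replicates 2 and 3 together (0.21) and with array weights. Rxrg, known from muscle and brain, was below the reference in all arrays and fell by 0.35 ± 0.09 (adjusted p = 0.00456), its groups parted by 0.01 and its change in batch 4 not called (−0.29). The change of Rxra minus that of Rxrb was −1.37 ± 0.10 on the log2 scale (SE; exact permutation test, adjusted p = 0.0195).

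The retinoic acid receptors bind retinoic acid itself. Rarb, whose own gene is a classical target of retinoic acid, was at 6.68, 6.44, 6.47, 7.06 and 6.94 in WT replicates 1 to 5 and at 5.85, 6.13, 6.18, 6.05 and 5.93 in KO replicates 1 to 5. The groups did not overlap, and the WT arrays of batches 3 and 4 were higher than those of batch 2. Its change was −0.69 ± 0.12 (SE; adjusted p = 3.7e-04), with −0.35 in batch 2 (adjusted p = 0.118, not called) and −1.0 in batch 4. Rara, needed in Sertoli cells and spermatids, changed by 0.16 (95% interval 0.01 to 0.31, adjusted p = 0.0873), and Rarg, known from spermatogonia, by 0.09 (−0.05 to 0.24, adjusted p = 0.287). The change of Rara minus that of Rarb was 0.85 ± 0.14 on the log2 scale, and that of Rarb minus Rarg −0.79 ± 0.16, with an adjusted p of 0.0195 in the exact permutation test for each. Within batch 2 the first was 0.46. Rara minus Rarg was 0.06 ± 0.09 (exact permutation test, adjusted p = 0.578).

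Among 13 measured genes of retinoid turnover and response, 2 fell and 2 rose, with a median of 0.10. Cyp26a1, which breaks retinoic acid down and is induced by it, fell by 0.60 ± 0.07 on the log2 scale (SE) and the meiotic cohesin gene Rec8 by 0.57 ± 0.06. Cyp26a1 lay near the reference in WT arrays (6.24 to 6.48) and below it in KO arrays (5.60 to 5.80). Tgm2, a transglutaminase, rose by 0.44 ± 0.10 and Rarres1 by 0.29 ± 0.09. Without KO replicate 4, 4 rose.

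Nr6a1 encodes germ cell nuclear factor, an orphan receptor of round spermatids and oocytes. It stood at 10.36, 10.45, 10.31, 10.24 and 10.23 in WT replicates 1 to 5 and at 9.72, 9.65, 9.54, 9.73 and 9.74 in KO replicates 1 to 5. The groups were apart by 0.50, and it fell by 0.64 ± 0.06 on the log2 scale (SE; adjusted p = 2.3e-06), leaving 64.1% of the WT signal. It was −0.83 in batch 2 and −0.50 in batch 4. The mean level of the round spermatid markers was 10.95 to 11.14 in WT and 9.74 to 9.94 in KO arrays. Their log2 changes were unequal, from −4.29 to 0.15 with a median of −0.30, and 3 of 5 were called lower. The mean level of the elongating spermatid markers was 12.95 to 13.27 in WT and 7.20 to 9.66 in KO arrays. The part of both sets of markers in the fall of Nr6a1 and of the other receptors was not tested. Of the measured receptors, Nr6a1 and Nr2e1 were the 2 with a full CRE in a promoter window, as had 2.71% of array genes. In Nr6a1 it lies 36 bases after the start of one of its 2 annotated windows, within these 30 bases (chr2:38926412-38926441, minus strand, GRCm38.p6), shown with the full CRE in capitals.
Nr6a1: cgtggcagcggcgcgTGACGTCAgaggagg

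Over all receptors in the table, 14 of 35 had a short CRE, and 6 of the 13 called ones, where 27.8% of the array genes had one. A gene counted if any of its windows matched. The 35 receptors had 54 windows, where the whole table had 32851 windows for 27025 genes. No share of the short or the full CRE is adjusted for this, so they do not show an excess in receptors. Among the 689 array genes in the table that fell by at least 1 in log2, 31.2% had one and 4.06% had the full CRE. Neither window of Rxra nor the window of Rarb held a short CRE.

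Among the orphan receptors of the NR2C and ERR groups, Nr2c2 rose, Esrrb fell and the others were not called. Nr2c2, the testicular receptor gene that spermatocytes and spermatids need, was at 9.58 to 9.85 in WT and at 10.21, 9.71, 10.09, 10.13 and 10.39 in KO replicates 1 to 5. KO replicate 2 lay within the WT range and the others above it. The change was 0.37 ± 0.11 (SE; adjusted p = 0.0117), 0.47 without KO replicate 2 and 0.51 without KO replicates 2 and 3. Its close relative Nr2c1 changed by −0.01 (95% interval −0.19 to 0.16, adjusted p = 0.921). Nr2c1 minus Nr2c2 was −0.39 ± 0.13 (exact permutation test, adjusted p = 0.0402), a call that held in 1 of 10 fits that left out an array. Esrrb, a receptor of pluripotent cells, fell by 0.46 ± 0.08 on the log2 scale (adjusted p = 6.5e-04), from 6.37 to 6.68 in WT to 5.84 to 6.23 in KO arrays. Its change was −0.20 in batch 2, where it was not called, and −0.78 in batch 4, whose 1 WT array was the highest. Esrra and Esrrg, which act on mitochondrial genes, changed by −0.07 (−0.19 to 0.06) and 0.00 (−0.13 to 0.14). Esrrg lay below the reference in every array, where a change may not be seen.

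**Figure D3:**
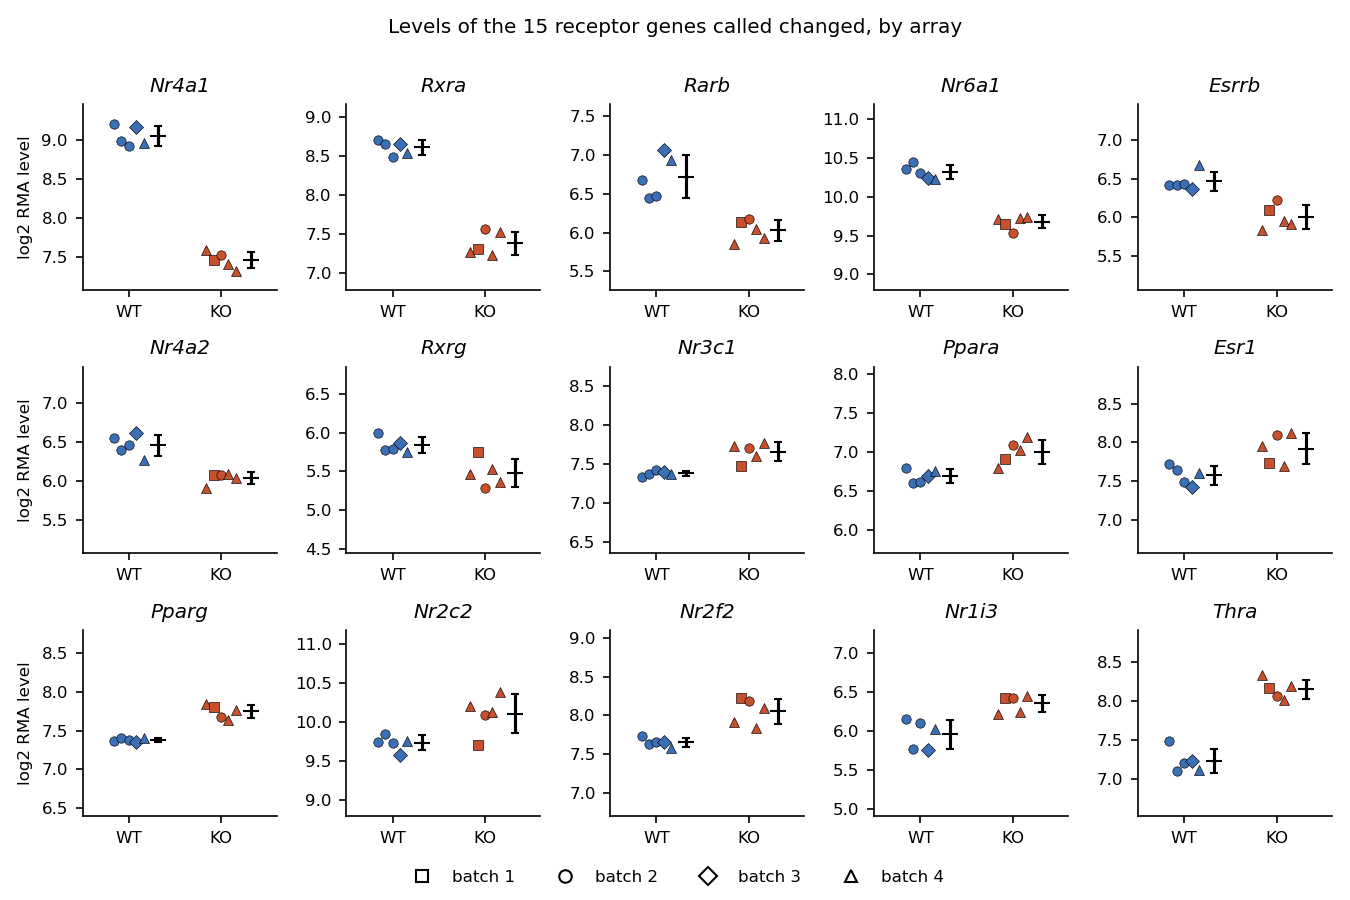
Log2 RMA level (vertical axis, set for each panel) of the 15 called receptors in the 5 WT and 5 KO arrays, with batch symbols and, next to each group, its mean ± SD. Nr4a1 and Rxra show the widest gaps, Thra lies higher in all KO arrays, and in Nr2c2, Ppara and Esr1 the groups meet or overlap.

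The thyroid hormone receptor gene Thra had the largest rise. It lay at 7.48, 7.10, 7.20, 7.23 and 7.11 in WT replicates 1 to 5 and at 8.33, 8.17, 8.07, 8.01 and 8.19 in KO replicates 1 to 5. Every KO array was above every WT array, by 0.52 or more. The rise was 0.93 ± 0.08 (SE; adjusted p = 9.6e-07), a 1.9-fold higher signal, and it was 0.81 in batch 2 and 1.07 in batch 4. Thra also yields a product that does not bind the hormone, and 1 feature for the gene does not separate them. Thrb changed by 0.04 (95% interval −0.16 to 0.24, adjusted p = 0.78), and Thra minus Thrb was 0.89 ± 0.14 (exact permutation test, adjusted p = 0.0195), with Thrb above the reference in 1 WT and 1 KO array. Of 7 measured genes of thyroid hormone handling and response 1 rose, Thrsp (0.34 ± 0.12, SE), and 1 fell, the deiodinase gene Dio3 (−0.18 ± 0.06). Dio3 lay below the reference in every array. Neither call was stable: Thrsp was not called with the housekeeping centring or without any 1 of WT replicates 2, 3 and 4 and KO replicates 1, 3 and 5, nor Dio3 with batch as a fixed block or without any 1 of WT replicate 1 and KO replicates 1 and 5.

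Of the steroid receptors, Esr1 and Nr3c1 rose and the others were not called. Esr1, the estrogen receptor of Leydig and peritubular cells and efferent ducts, was at 7.72, 7.65, 7.49, 7.42 and 7.61 in WT replicates 1 to 5 and at 7.95, 7.73, 8.10, 7.70 and 8.12 in KO replicates 1 to 5. The groups overlapped by 0.02, and the rise was 0.34 ± 0.09 (SE; adjusted p = 0.0102), no longer called with the housekeeping centring (0.25, adjusted p = 0.0605) or in batch 4 (0.31). Esr2 changed by −0.07 (95% interval −0.23 to 0.08), with all 10 arrays below the reference. Nr3c1, the glucocorticoid receptor, rose by 0.28 ± 0.06 (adjusted p = 0.00368), from 7.33 to 7.43 in WT to 7.47 to 7.77 in KO arrays, which did not overlap. The mineralocorticoid receptor gene Nr3c2 stood at 0.24 ± 0.11 (adjusted p = 0.105) and was called higher without WT replicate 4 (0.32) or without KO replicate 1 (0.31). The progesterone receptor gene Pgr stood at −0.08 (−0.19 to 0.03) and was called lower with the housekeeping centring (−0.17).

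Of 16 glucocorticoid-responsive genes 3 fell and 4 rose, with a median of 0.08, and the housekeeping centring turned the median to −0.01. Lcn2, a lipocalin, rose by 1.02 ± 0.19 (SE), whereas Dusp1, named above, and Per1, a clock gene (−0.49 ± 0.08), fell. With batch as a fixed block 8 rose and 2 fell, and 7 rose with array weights or without KO replicate 2.

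The PPARs respond to fatty acids. Pparg, the receptor that drives fat cell formation, was at 7.35 to 7.41 in WT and at 7.84, 7.81, 7.67, 7.64 and 7.77 in KO replicates 1 to 5. The WT arrays were nearly alike and all lay below KO. The rise was 0.36 ± 0.06 (SE; adjusted p = 1.9e-04). Ppara, which activates fatty acid oxidation, rose by 0.31 ± 0.08 (adjusted p = 0.00608), with arrays at 6.60 to 6.80 in WT and 6.80 to 7.19 in KO that touched at 6.80. This call ended with the housekeeping centring (0.22, adjusted p = 0.0555). Ppard changed by 0.03 (95% interval −0.18 to 0.25). Ppard differed from Pparg by −0.33 ± 0.13 (exact permutation test, adjusted p = 0.0402), a call held in 1 of 10 fits that left out an array, and Ppara did not differ detectably from either (adjusted p = 0.0714 and 0.669).

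Of 16 measured PPAR target genes 8 rose and 1 fell, with a median of 0.22. Of all genes 31.1% rose and 13.2% fell, with a median of 0.07, which is the background for every gene list here. The mitochondrial fatty acid oxidation gene Acadm rose by 0.56 ± 0.08 (SE), the fatty acid transporter gene Cd36 by 0.60 ± 0.14 and Fabp1, a fatty acid binding protein gene, by 0.44 ± 0.09. Fabp1 lay below the reference in every array, at 4.98 to 5.30 in WT and 5.38 to 5.81 in KO. Plin2, which coats lipid droplets, fell by 1.05 ± 0.08 on the log2 scale. With the housekeeping centring 5 rose and 2 fell, with a median of 0.13, and 2 fell without KO replicate 5. None of the 5 adipocyte markers rose and 1 fell, Adipoq (−0.24 ± 0.08), which was 0 of 5 without any 1 of WT replicates 2, 4 and 5 and KO replicate 5.

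ERR targets numbered 6, of which 3 rose and 1 fell. Acadm is in this list as well, the citric acid cycle gene Idh3a rose by 0.49 ± 0.06 (SE), and Tfam, a mitochondrial transcription factor gene with a testis form of its transcript, fell by 3.02 ± 0.10 on the log2 scale. With the housekeeping centring 2 rose and 2 fell.

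Nr2f2, an orphan receptor of interstitial and peritubular cells and of Leydig cell precursors, lay at 7.73, 7.63, 7.66, 7.66 and 7.58 in WT replicates 1 to 5 and at 7.92, 8.22, 8.18, 7.84 and 8.10 in KO replicates 1 to 5. All KO arrays were higher, by 0.11 or more. The rise was 0.40 ± 0.08 (SE; adjusted p = 8.7e-04), with 0.51 in batch 2 and 0.38 in batch 4, where it was not called, and 0.30 without KO replicates 2 and 3. Nr2f6 stood at 0.19 ± 0.08 (adjusted p = 0.0631) and was called higher without WT replicate 1, without KO replicate 2, after quantile normalisation once more and with arrays centred on their median, and its change was 0.10 to 0.28 over all alternatives. Nr2f1 changed by 0.04 (95% interval −0.10 to 0.18). The mean marker levels were 7.34 to 7.49 in WT and 7.77 to 8.42 in KO arrays for macrophages. They were 6.86 to 6.98 and 7.53 to 7.58 for endothelium, and 7.93 to 8.10 and 8.00 to 8.26, which overlap, for myoid cells. The endothelial markers changed unequally, from −0.06 to 2.05 on the log2 scale, and 3 of 6 were called. The part of these cell types in the rises of Nr2f2 and the other receptors was not tested.

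Nr1i3, a xenobiotic receptor best known from liver, rose by 0.40 ± 0.09 (SE; adjusted p = 0.00289), from 5.75 to 6.15 in WT to 6.22 to 6.45 in KO arrays. The groups were apart by 0.07 and lay near or below the reference level. Of the 6 hepatocyte markers none rose and 2 fell, or 1 without any 1 of WT replicates 1, 3 and 4 and KO replicates 1, 4 and 5. Nr1i2, the other xenobiotic receptor, changed by 0.02 (95% interval −0.23 to 0.27), below the reference in every array. Nr1h4, the bile acid receptor, changed by −0.03 (−0.25 to 0.19). Of 11 genes of bile acid and xenobiotic handling 2 rose, both exporters. Abcb11, the bile salt pump of liver, rose by 1.92 ± 0.10. Abcc2 rose by 0.67 ± 0.17, with WT arrays at 6.04 to 6.26, below the reference. None fell, except that 1 was called lower with the housekeeping centring.

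The remaining receptors were not called. The vitamin D receptor gene Vdr stood at 0.09 (95% interval −0.08 to 0.26) and, of 6 genes of vitamin D handling and response, the sterol hydroxylase gene Cyp27a1 rose, by 0.69 ± 0.08 (SE), with 2 genes called without WT replicate 3 or 4. Nr0b1, an X-linked receptor without the usual DNA-binding domain that restrains steroid synthesis, was at 10.24 to 10.41 in WT and 10.05 to 10.46 in KO arrays, a change of −0.02 (−0.20 to 0.15). Nr0b2, built alike, stood at −0.08 (−0.29 to 0.14), Nr5a2 at −0.03 (−0.22 to 0.15), Hnf4a at 0.05 (−0.19 to 0.30), Hnf4g at −0.04 (−0.23 to 0.15) and the brain receptor gene Nr2e1 at −0.08 (−0.24 to 0.08). Over the 23 receptors not called, the 95% intervals reached from −0.29 to 0.47, and 3 of them (Rara, Rxrb and Nr2f6) had an unadjusted p under 0.05.

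Across the families, 16 of 27 pairs of receptors passed the test of a difference in log2 change after adjustment. In 8 of these, 1 gene lay below the reference in every array, and they are not read further. Of the other 8, 5 were called in each of the 10 fits that left out an array and 3 in 1 or 2 of them. WT and KO arrays did not overlap in the 5 and overlapped in the 3. Leaving out an array cannot make separate groups overlap, so these counts restate the overlap and add no further support. Of the 8, 3 had both genes above the reference in all arrays (Rxra with Rxrb, Ppard with Pparg and Nr2c1 with Nr2c2). Without KO replicates 2 and 3 no pair was called, since 3 against 5 arrays allow no p below 0.0357, and all 16 kept their direction.

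**Figure D4:**
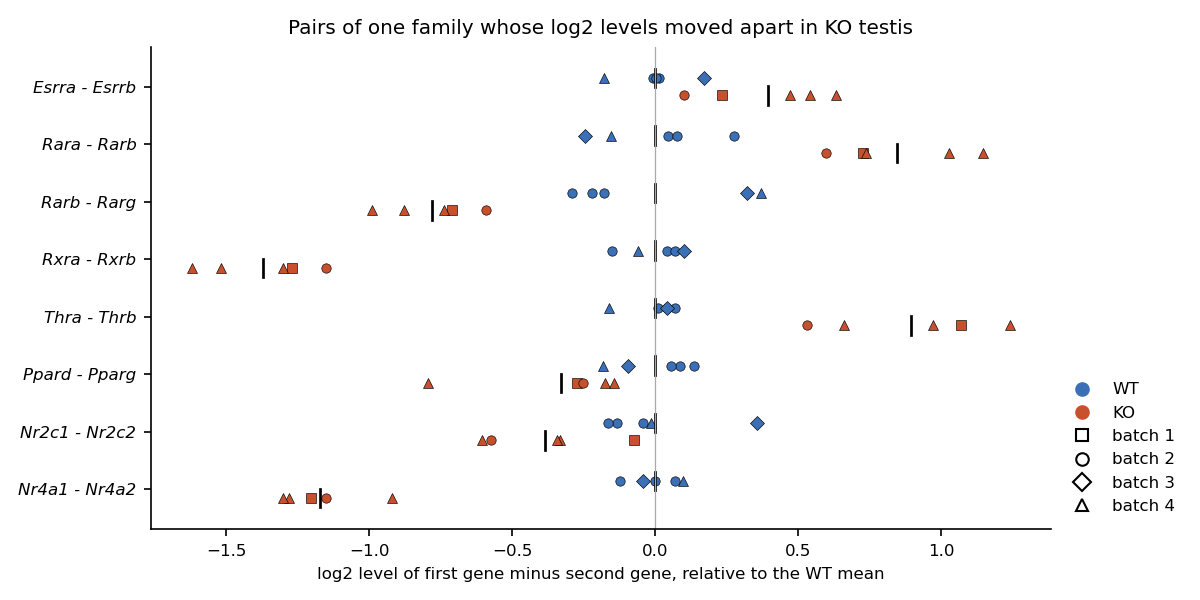
Log2 level of the first receptor minus that of the second, relative to the WT mean (horizontal axis), for the 8 pairs of one family that passed the test and held no gene below the reference in every array, by array with batch symbols and group means as bars. Rxra minus Rxrb lies furthest from WT, with a mean of −1.37, followed by Nr4a1 minus Nr4a2 at −1.17.

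Receptors of the superfamily outside the list, of which 6 were measured, were called lower in 2 (Rora, −2.08 ± 0.09, SE; Nr1h3, a sterol receptor gene, −0.67 ± 0.07) and higher in 2 (Nr1d2, 0.31 ± 0.07; Nr5a1, the regulator of steroid-making cells, 0.30 ± 0.07). Coregulators, the proteins through which receptors act on chromatin, were lower in 5 and higher in 7 of 21, with a median of 0.14. The arginine methyltransferase gene Carm1 fell by 1.27 ± 0.08 on the log2 scale and Ncoa7 by 0.45 ± 0.07, while the coactivator gene Ncoa1 rose by 1.05 ± 0.09 and Brd8 by 0.47 ± 0.07. With the housekeeping centring the counts were 5 lower and 3 higher, and 4 were higher without any 1 of WT replicates 3 and 5 and KO replicate 3.

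**Figure D5:**
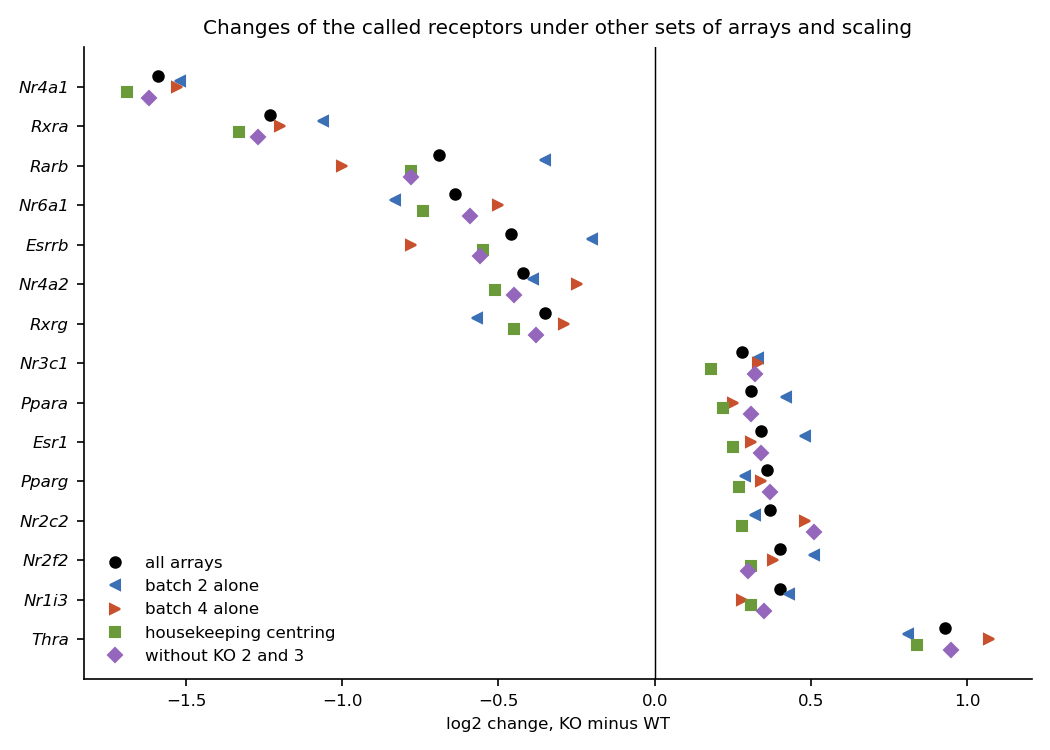
Log2 change of KO minus WT (horizontal axis) of the 15 called receptors over all arrays, in batch 2 alone, in batch 4 alone, with the arrays centred on housekeeping genes and without KO replicates 2 and 3. Every change kept its sign in each of these, and Rarb and Esrrb differed most between the batches, with −0.35 and −1.0 for Rarb and −0.20 and −0.78 for Esrrb.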

How the data were processed

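Total RNA of 10 testes, 5 WT and 5 KO, was hybridised to 1 array per mouse. The authors deposited log2 expression values made with RMA (XPS package, core transcripts, background from antigenomic probes, quantile normalisation); the package version and probe annotation build are not given in the sources used here. The table had 35557 rows, of which 9868 held no values and 25689 were analysed. Array medians were 7.11 to 7.15, no arrays were identical, and pairs of arrays correlated at 0.9936 to 0.9954 (WT), 0.9919 to 0.995 (KO) and 0.9363 to 0.9519 (WT with KO). Of the features, 20777 had 1 gene symbol in the GEO platform annotation, 232 several and 4680 none, and 20696 were updated through RefSeq (GRCm38.p6). Where a gene had several features, the brightest on average was taken.

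KO was compared with WT by limma 3.58.1 in R 4.3.3 (lmFit, eBayes, two-sided, no covariate), with Benjamini-Hochberg adjustment over all features and calls at 0.05, and the fit was tested on simulated data. Differences within families were tested by exact permutation (scipy 1.17.1). The number of arrays limits the precision; standard errors of the receptors were 0.05 to 0.12. Arrays were numbered in deposition order within each group. WT and KO were different mice that the labels do not match, so they were not paired. With 1 array per mouse and no batch term, the spread behind the p-values mixes mice, batches and array handling. Receptors, gene lists and tests were chosen with earlier results of these data known. Any receptor could be named, and of each other list at most the 4 called genes with the largest change, and the lists are textbook sets. Alternatives were scaling, centring, batch as a block, each batch alone, array weights, trend and robust eBayes, a filter on the lowest 25% of features, feature averaging and leaving arrays out. Within batch 2 the KO group, and within batch 4 the WT group, is 1 array, assumed to vary like the others.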

Additional observations from a re-analysis of the deposited data

Results flagged for a closer look

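Of 76 groups of 5 arrays, 3 held an array far from the others, and chance flags about 1 in 20. WT replicate 5 had the highest Esrrb level, at 6.68, with the other WT arrays at 6.37 to 6.43. WT replicate 4 had the lowest Esrrg level, at 6.14, with the others at 6.29 to 6.32. KO replicate 2 had the highest Hnf4a level, at 7.33, with the others at 6.75 to 6.86.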

How the results depend on the processing

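All 15 called receptors kept their sign under each of 22 alternatives that held them, and all stayed called when any 1 array was left out. Leaving out 1 array gave 7 receptors lower and 8 to 10 higher, 2388 to 2732 genes lower and 5392 to 6559 genes higher. The pairs called were then 11 to 13. WT and KO arrays did not overlap in 11 pairs, which leaving out 1 array cannot change, so the calls of those 11 were bound to stay. In batch 2 alone 4 receptors were lower and 3 higher (genes: 1552 and 2208), and in batch 4 alone 5 and 1 (genes: 1584 and 1902); these fits hold fewer arrays. Centring on 7 measured housekeeping genes moved the median of all genes by −0.09, gave 3846 genes lower and 3748 higher (49.4% of called genes higher, against 70.1%), 9 receptors lower and 6 higher, and ended the calls of Esr1 and Ppara. Before this centring, 3 of the 7 housekeeping genes were called higher and 1 lower. Without KO replicates 2 and 3 together 0 pairs were called, with a smallest adjusted p of 0.0689. With the 99th percentile of olfactory receptor genes as reference, 12 receptors were above it in every WT array and 12 in every KO array. Of the 23 receptors not called, 14 changed sign under at least 1 alternative. No paired analysis was made, because WT and KO were different mice that the labels do not match.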
